A study of Arabidopsis thaliana with 30 samples.

Results

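The early transcript response to antimycin A was read in whole wild-type seedlings of Arabidopsis thaliana (accession Col-0) by setting 3 libraries of seedlings given the inhibitor for 3 h against 3 libraries of seedlings given the medium alone for 3 h. These 6 libraries were chosen by genotype, treatment and time from the 30 libraries of the study, which also holds ein2-5, a mutant in the ethylene signalling protein EIN2, and seedlings taken at 24 h or left untreated. Seedlings were 12 days old and had grown on plates of Murashige and Skoog medium with 1.5% sucrose at 22 °C, in 14 h of light and 10 h of dark. The plates were then flooded with this medium in liquid form, either alone (MS) or with antimycin A at 20 µM (AA). Both groups compared were therefore wild type, were under liquid and differed in the inhibitor; the labels do not say whether the solvent of antimycin A was added to MS. Messenger RNA was enriched and sequenced, and 27655 genes were counted, of which 21256 passed a filter on low counts and were tested.

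Antimycin A blocks complex III, the step of the mitochondrial respiratory chain that hands electrons from ubiquinol to cytochrome c. Plants can send those electrons to oxygen through alternative oxidase instead, and a signal from the blocked chain reaches the nucleus through membrane-bound transcription factors of the NAC family, ANAC013 and ANAC017, in what is called retrograde signalling. The genes best known to answer this signal encode alternative oxidase, alternative NAD(P)H dehydrogenases and small mitochondrial proteins. The values below also cover detoxification, hormone, nutrient, oxygen, immune and cell wall genes. Whether the changes in those genes depend on this signal was not tested.

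Levels are CPM, the counts of a gene scaled to a common library size. A level given with ± is the mean and SD of 3 libraries. A value without a unit is the log2 fold change of AA against MS at 3 h in wild type, given with its SE where one follows, from a single fit over all 30 libraries. A gene is said to have risen or fallen where edgeR's quasi-likelihood test gave a Benjamini-Hochberg adjusted p under 0.05 over the 21256 genes. Counts of a list or family are over its members that passed the filter. Values that are not whole numbers in the deposited counts mark read pairs shared between genes. Nothing in the labels tells if the replicates were grown apart, so these p-values measure the spread between the libraries at hand. Total counts ran from 25727933 to 27076125 read pairs in the AA libraries and from 23401955 to 24461542 in the MS libraries. Leaf markers did not pass the test (RBCS1A at -0.15, LHCB1.1 at -0.18, LHCB2.1 at -0.10 and CA1 at -0.24), nor did the 3 guard cell markers and the phloem marker SUC2, and markers of seed and pollen stayed at or under 0.485 CPM in all libraries. Of the root markers, CASP1 of the endodermis was not called (-0.22), and COBL9, EXPA7 and PIP2;4 fell (-1.15, -1.18 and -0.94). In whole seedlings, fewer cells of a type and less transcript per cell cannot be told apart.

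AA raised 1317 genes and lowered 808 at 3 h in wild type, which is 6.20% and 3.80% of the genes tested. By at least 2-fold, 524 genes rose (2.47%) and 284 fell (1.34%), and the median change over all genes was -0.01. Of the genes called, 2102 (9.89% of those tested) had no overlap between the 3 AA and the 3 MS libraries. Several of the rules that chose the genes named below required this. A lack of overlap in a named gene therefore describes its libraries and adds no support to its call. As a check of the treatment, AOX1A (AT3G22370), the alternative oxidase gene most used as a marker of a blocked chain, stood at 59.5, 58.4 and 55.8 CPM with MS and 301, 347 and 369 CPM with AA, and the groups did not overlap (2.55 ± 0.15, edgeR adjusted p = 3.16e-14). ANAC017 (AT1G34190), the factor that is held at the endoplasmic reticulum and released as protein, stood at 53.2, 52.3 and 53.0 CPM with MS and 54.1, 55.3 and 56.3 CPM with AA and was not called (0.06 ± 0.07, edgeR adjusted p = 0.699).

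A short sequence lay before more of the genes with the largest rises than of all genes. The mitochondrial dysfunction motif, to which ANAC013 and ANAC017 are known to bind, was searched on both strands in the 500 bases before each annotated gene start as CTTG and CAAG with 5 bases of any kind between them (the first form) and as CTTG and CACG with the same spacing (the second form). One or both forms lay before 2.09% of 27444 genes, 5.48% of 1315 risen genes with a promoter in the reference, 1.73% of 808 fallen genes and 17.3% of the 202 genes that rose at least 4-fold. The windows below, read from RefSeq TAIR10.1 on the strand of each gene with the motif in capitals (CGTG to CAAG where the second form lies on the other strand), are shown because they stand before genes named in this account, from almost silent genes of unknown function to the respiratory gene NDB2.

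AT5G55150 (chr5:22383444-22383504, minus strand): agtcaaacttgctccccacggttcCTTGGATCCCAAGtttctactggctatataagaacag
AT5G24640 (chr5:8436248-8436308, plus strand): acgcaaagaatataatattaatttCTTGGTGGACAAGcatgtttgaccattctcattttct
AT2G04050 (chr2:1339647-1339707, minus strand): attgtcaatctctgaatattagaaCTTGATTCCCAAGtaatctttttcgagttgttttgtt
AT2G04050 (chr2:1339588-1339648, minus strand): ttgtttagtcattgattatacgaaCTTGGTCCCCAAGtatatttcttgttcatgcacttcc
AT1G34050 (chr1:12393133-12393193, plus strand): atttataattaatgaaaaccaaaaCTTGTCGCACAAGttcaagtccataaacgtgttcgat
AT4G12735 (chr4:7494307-7494367, minus strand): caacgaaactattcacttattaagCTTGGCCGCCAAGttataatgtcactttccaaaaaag
AT4G12735 (chr4:7494379-7494439, minus strand): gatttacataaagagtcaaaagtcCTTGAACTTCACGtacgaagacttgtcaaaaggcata
AT2G38823 (chr2:16223894-16223954, plus strand): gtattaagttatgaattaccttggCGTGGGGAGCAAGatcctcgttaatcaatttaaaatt
ABCB11 (chr1:523425-523485, plus strand): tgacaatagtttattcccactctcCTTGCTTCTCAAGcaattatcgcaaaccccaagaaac
CYP81D8 (chr4:17571847-17571907, minus strand): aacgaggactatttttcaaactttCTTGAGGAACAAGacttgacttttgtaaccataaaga
AT5G54100 (chr5:21956661-21956721, minus strand): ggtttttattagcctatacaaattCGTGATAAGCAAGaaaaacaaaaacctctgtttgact
NDB2 (chr4:2572324-2572384, plus strand): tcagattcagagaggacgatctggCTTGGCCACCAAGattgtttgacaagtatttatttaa
ADH1 (chr1:28975012-28975072, plus strand): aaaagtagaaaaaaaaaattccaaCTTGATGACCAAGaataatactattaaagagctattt
ADH1 (chr1:28975118-28975178, plus strand): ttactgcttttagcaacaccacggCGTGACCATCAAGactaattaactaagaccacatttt

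In these windows the motif ended between 66 and 256 bases before the annotated gene start. AT5G55150, AT4G12735 and ADH1 held both forms, and AT2G04050 held the first form at separate places. ADH1, for alcohol dehydrogenase, is printed as the contrary case, since it carries both forms and fell. A match of these letters is a description of the sequence and does not show that a factor was bound.

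Other motifs were searched in the same windows. The W box of WRKY factors lay before more of the risen than of the fallen genes: TTGACC before 30.8% against 17.1% (20.7% of all), and TTGACT before 45.6% against 35.5% (31.9% of all). The TGA factor core TGACG lay before 37.2% of risen and 31.4% of fallen genes (32.0% of all), and before 48.5% of the genes that rose at least 4-fold. The rapid stress element CGCGTT stood at 6.46% and 2.72% (4.61% of all), and the GCC box GCCGCC at 4.71% and 2.35% (4.12% of all). The auxin response element TGTCTC lay before 18.5% of risen and 18.3% of fallen genes, under the 21.3% of all promoters. For TGTCGG (7.68% and 8.42%), the palindrome TGACGTCA (0.913% and 0.124%), the G box CACGTG (9.73% and 9.28%), ACGTGGC of abscisic acid response (4.94% and 4.70%), TTATCC of sugar repression (24.2% and 21.4%), the evening element AAATATCT (10.8% and 9.65%) and the heat shock element GAACNNTTC (5.32% and 3.59%), the first value is for risen and the second for fallen genes. Over all promoters these motifs stood, in the same order, at 7.68%, 0.736%, 9.35%, 4.72%, 22.4%, 8.86% and 4.35%. The palindrome lay before only 12 risen genes and 1 fallen gene. It contains the TGA core, and the G box and the abscisic acid element share the letters CACGTG or ACGTG, so these counts overlap.

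Alternative respiration takes in oxidases that pass electrons around the blocked step and NAD(P)H dehydrogenases that feed ubiquinone without complex I. Of its genes, 7 of 11 rose and none fell, with a median change of 1.56. Beyond AOX1A, the related oxidase gene AOX1D (AT1G32350) stood at 2.597, 0.624 and 1.56 CPM with MS and 14.3, 10.6 and 13.3 CPM with AA (2.98 ± 0.44, edgeR adjusted p = 9.67e-06). AOX1B (AT3G22360) stayed under 1 CPM in every library (0.0812, 0 and 0 CPM with MS and 0.665, 0.606 and 0.918 CPM with AA). The external NAD(P)H dehydrogenase gene NDB2 (AT4G05020), whose promoter is printed above, stood at 29.99, 22.1 and 20.9 CPM with MS and 59.7, 75.3 and 80.8 CPM with AA (1.56 ± 0.21). In each of these genes all AA libraries lay above all MS libraries. On the wider list of mitochondrial dysfunction markers 13 of 14 rose and none fell (median 3.24); these markers were known from earlier work on mitochondrial inhibitors and mutants.

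Other genes of mitochondrial metabolism are given beside 6.20% higher and 3.80% lower over all genes. Of 19 genes of the tricarboxylic acid cycle 1 rose, ACO3 (AT2G05710), an aconitase (from 315 ± 18.9 to 459.7 ± 33.7 CPM, 0.55), and 1 fell, MMDH2 (AT3G15020), a malate dehydrogenase (-0.31, a call lost without AA replicate 3 or MS replicate 2, where the edgeR adjusted p was 0.148 to 0.199). Of 21 mitochondrial carriers 3 rose and none fell: MPT2 (AT3G48850), a phosphate carrier, went from 1.83 ± 0.995 to 7.05 ± 0.651 CPM (1.93 ± 0.40), AAC3 (AT4G28390), an ADP/ATP carrier, changed by 0.74 ± 0.21 (a call lost without AA replicate 1 or 2 or MS replicate 2 or 3, where the edgeR adjusted p was 0.0601 to 0.126), and DIC3 (AT5G09470), a dicarboxylate carrier, by 2.06 ± 0.65 (a call lost without AA replicate 1 or 2 or MS replicate 2 or 3, where the edgeR adjusted p was 0.0869 to 0.21). The groups overlapped in DIC3, at under 3 CPM. The list had 1 called without AA replicate 2 or MS replicate 2 or 3. AT5G66650, annotated as a calcium uniporter, went from 2.26 ± 0.411 to 9.35 ± 1.89 CPM (2.05 ± 0.23). Of 10 proteins with a SPFH or prohibitin-like domain, a family picked by product name, 3 rose, among them AT5G54100 at 19.3, 15.1 and 16.1 CPM with MS and 84.8, 99.8 and 106 CPM with AA (2.52 ± 0.14) and AT4G27585 (1.36 ± 0.11). The ATPase of the outer mitochondrial membrane OM66 (AT3G50930) stood at 15.1, 8.29 and 7.22 CPM with MS and 80.3, 88.2 and 108 CPM with AA, and AT5G51440, annotated as a small chaperone like HSP20, rose by 2.56, while no member of the 18 cytosolic heat shock genes rose and 1 fell, the factor HSFA2 (AT2G26150) (-1.22, a call lost without AA replicate 3 or MS replicate 2, where the edgeR adjusted p was 0.0899 to 0.12). Other fits called members of this list as higher too. A fit of the 6 libraries alone gave 2 higher and 3 lower. It was 1 higher and 1 lower with a filter of 1 CPM in 3 libraries, DESeq2, a replicate block or organelle genes left out.

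**Figure D1:**
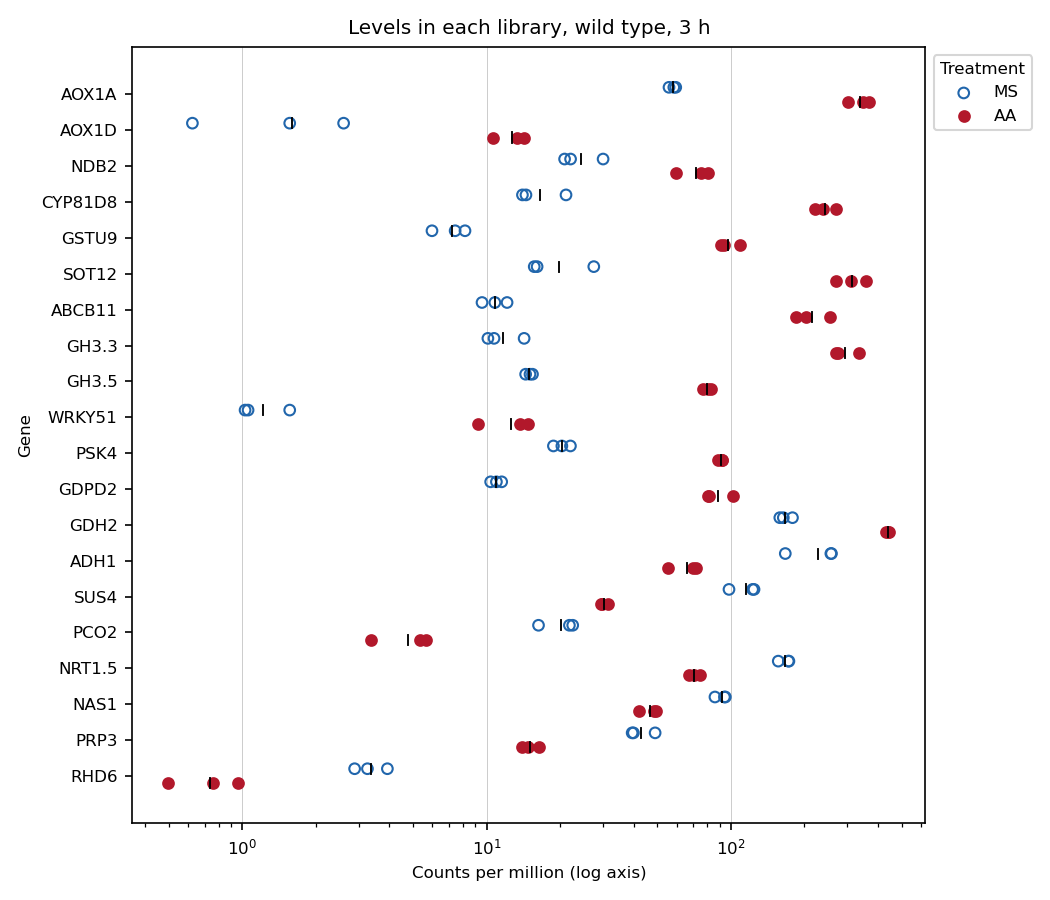
CPM of 20 genes on a log axis in the 3 MS libraries (open circles) and the 3 AA libraries (filled circles) of wild type at 3 h and a vertical tick at each group mean. The circles of the groups do not overlap in any of these genes, which for many of them was a condition of being named. AOX1A, GH3.3, ABCB11 and SOT12 lie to the right with AA, and ADH1, SUS4, NRT1.5 and PRP3 to the left.

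Most genes of oxygen shortage fell under AA. Low oxygen stabilises ERF factors that switch on alcohol fermentation and a core set of genes, and plant cysteine oxidases mark those factors for breakdown when oxygen is present. Of 22 tested genes of this core set 13 fell and 1 rose, with a median of -1.28. ADH1 (AT1G77120), the alcohol dehydrogenase, stood at 167, 258 and 257 CPM with MS and 72.1, 70.1 and 55.5 CPM with AA (-1.79 ± 0.20, edgeR adjusted p = 5.76e-08). PDC1 (AT4G33070), the pyruvate decarboxylase that feeds it, stood at 123, 168 and 164 CPM with MS and 79.7, 69.3 and 96.1 CPM with AA (-0.89 ± 0.12). SUS4 (AT3G43190), a sucrose synthase, stood at 98.3, 124 and 123 CPM with MS and 29.6, 29.4 and 31.4 CPM with AA (-1.93 ± 0.10). All 3 AA libraries lay under all 3 MS libraries in each of these genes.

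The oxygen-sensing oxidase genes moved the same way: PCO2 (AT5G39890) stood at 16.3, 22.5 and 21.8 CPM with MS and 3.36, 5.64 and 5.32 CPM with AA (-2.08 ± 0.16) and PCO1 (AT5G15120) at 21.7, 24.4 and 25.3 CPM with MS and 17.98, 17.57 and 17.56 CPM with AA (-0.43 ± 0.10), without overlap. The other fallen members included AT4G24110 (-2.05), AT1G33055 (-2.15), AT4G33560 (-2.00), AT1G12805 (-2.51) and LBD41 (AT3G02550), a repressor-type factor of the same response (-1.44). AT5G10040 fell to almost no counts (3.45, 4.77 and 3.93 CPM with MS and 0.185, 0.0379 and 0.0383 CPM with AA). Among the ERF factors of the response, HRE1 (AT1G72360) went from 15.8 ± 1.30 to 6.32 ± 0.328 CPM (-1.32 ± 0.12). HRE2 (AT2G47520) went the other way, from 2.85 ± 0.252 to 11.9 ± 2.03 CPM (2.06 ± 0.31).

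Untreated seedlings and seedlings at 24 h set these levels in context. ADH1 stood at 111 ± 24.4 CPM in untreated seedlings, 227 ± 52.2 with MS at 3 h and 65.9 ± 9.10 with AA at 3 h, and PDC1 at 87.2 ± 12.5, 152 ± 25.3 and 81.7 ± 13.5 CPM. SUS4 stood at 103 ± 1.52, 115 ± 14.7 and 30.1 ± 1.103 CPM in the same order. The MS libraries at 3 h serve both comparisons, so their own level enters each. The labels name the time as the batch, so differences between untreated seedlings, 3 h and 24 h cannot be told apart from batch. This limit holds for each comparison with untreated seedlings below. At 24 h the MS and AA levels were 101 ± 11.8 and 128 ± 21.2 CPM for ADH1, 57.1 ± 1.37 and 166 ± 12.7 for PDC1, and 56.5 ± 2.17 and 104 ± 8.96 for SUS4. The difference between AA and MS was lower at 3 h than at 24 h in each of these 3 genes by the interaction test (ADH1 -2.12 ± 0.28, PDC1 -2.43 ± 0.17 and SUS4 -2.81 ± 0.14, edgeR adjusted p of at most 2.74e-06).

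**Figure D2:**
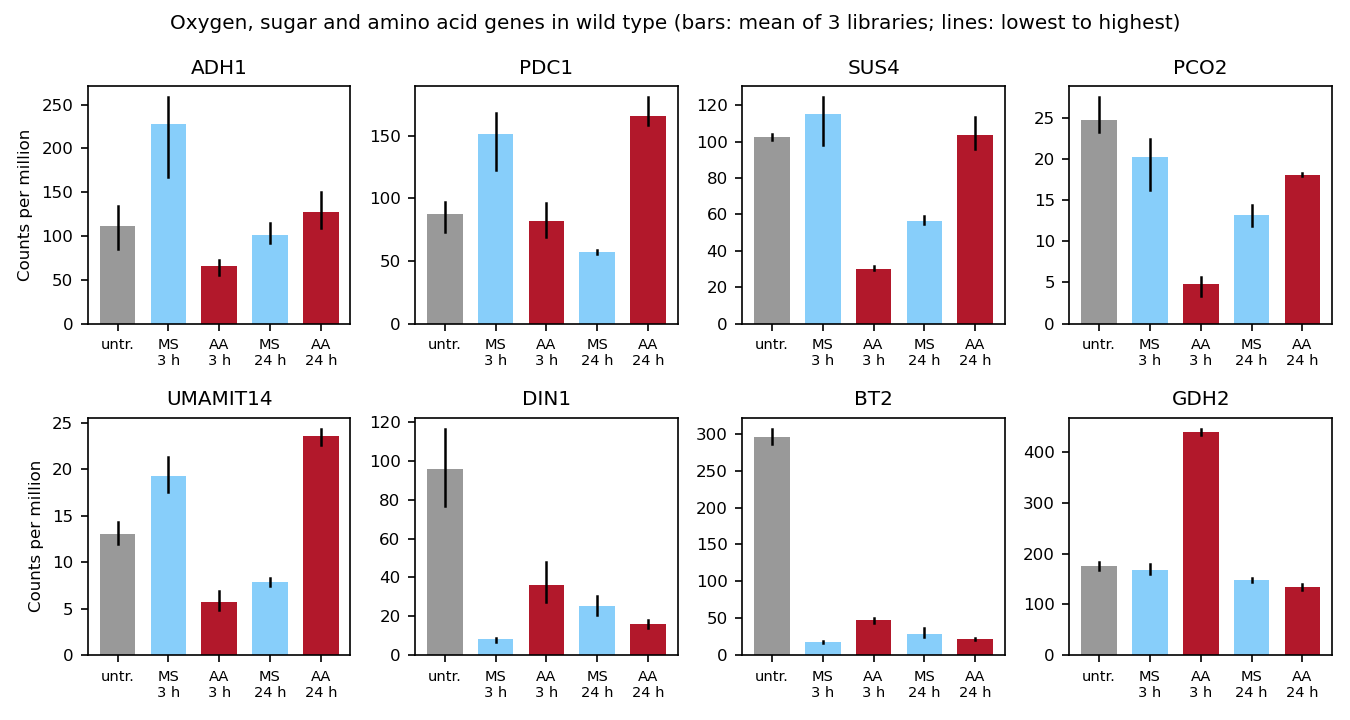
CPM of 8 genes in wild type, on an axis from 0 in each panel, for untreated seedlings, MS and AA at 3 h, and MS and AA at 24 h; bars are means of 3 libraries and lines run from the lowest to the highest library. ADH1, PDC1, SUS4, PCO2 and UMAMIT14 were lower with AA than with MS at 3 h, and DIN1, BT2 and GDH2 were higher.

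Genes of glycolysis and fermentation were called in both directions. Of 19 genes of glycolysis and fermentation 5 rose and 4 fell. The genes that fell were PDC1, ADH1, SUS4 and SUS1 (AT5G20830), another sucrose synthase (-0.66). Those that rose included PFK7 (AT5G56630), a phosphofructokinase (0.53), the aldolase FBA8 (AT3G52930) (0.43), FBA6 (AT2G36460), another aldolase (from 110.0 ± 5.46 to 203 ± 21.8 CPM, 0.88), GAPC1 (AT3G04120), a cytosolic glyceraldehyde phosphate dehydrogenase (0.68), and AT4G17260, annotated as a lactate/malate dehydrogenase, at 19.8, 22.7 and 20.2 CPM with MS and 58.1, 66.3 and 78.3 CPM with AA (1.69 ± 0.12). At 24 h 13 of the 19 were higher with AA and none lower, where 6.48% of all genes were higher and 6.50% lower.

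Some genes of detoxification rose among conjugating enzymes, reductases and exporters. Glutathione transferases join glutathione to reactive compounds: of 27 tau-class members 10 rose and 3 fell, and of 12 phi-class members 4 rose and 2 fell. GSTU9 (AT5G62480) stood at 8.16, 5.98 and 7.43 CPM with MS and 91.2, 93.5 and 109 CPM with AA (3.76 ± 0.16, edgeR adjusted p = 6.45e-17), and GSTU1 (AT2G29490), GSTU24 (AT1G17170) and GSTF7 (AT1G02920) rose by 1.77, 1.88 and 1.30 (43.3% of the values of GSTF7 were not whole). GSTF14 (AT1G49860) fell (from 50.3 ± 3.24 to 30.3 ± 2.26 CPM, -0.73).

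Genes of conjugation to sugars and sulphate are given next. The UDP-glycosyltransferases moved both ways, with a median of -0.03, where 6.20% of all genes rose and 3.80% fell. Of 58 UDP-glycosyltransferases 14 rose and 9 fell; UGT73B4 (AT2G15490) stood at 24.6, 14.7 and 15.2 CPM with MS and 94.3, 83.5 and 104 CPM with AA (2.37 ± 0.18), UGT73B3 (AT4G34131) rose by 1.69, and UGT72E2 (AT5G66690), which glucosylates monolignols, fell from 53.1 ± 2.86 to 18.24 ± 2.25 CPM (-1.54 ± 0.09). The sulphotransferase gene SOT12 (AT2G03760) stood at 27.5, 16.1 and 15.7 CPM with MS and 270.2, 311 and 357 CPM with AA (3.98 ± 0.31, edgeR adjusted p = 2.84e-11). Every AA library of SOT12 lay far above the highest MS library. The monooxygenase gene MO1 (AT4G15760) stood at 61.7, 55.4 and 49.0 CPM with MS and 289, 302 and 319.9 CPM with AA (2.45 ± 0.11).

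OPR1 (AT1G76680), a 12-oxophytodienoate reductase, rose from 162, 147 and 148 to 377, 402 and 367 CPM (1.33 ± 0.15), and FQR1 (AT5G54500), a quinone reductase, by 1.04. The related OPR3 (AT2G06050) (-0.06) and the aldo-keto reductases AKR4C8 (AT2G37760), AKR4C9 (AT2G37770) and AKR4C10 (AT2G37790) (0.38, 0.75 and -0.03) were not called, though AKR4C9 was with DESeq2 (adjusted p = 0.0237) and by edgeR without MS replicate 1 (adjusted p = 0.0171). ALDH7B4 (AT1G54100), an aldehyde dehydrogenase, rose by 0.82. In the list of detoxification regulators and enzymes 10 of 26 rose and none fell. The list of thiol and glutathione redox genes gave 2 of 23 and no gene lower; these were TPX2 (AT1G65970) (0.65, a call lost without AA replicate 1 or 2 or MS replicate 1 or 2, where the edgeR adjusted p was 0.0622 to 0.0828) and GSH2 (AT5G27380), glutathione synthetase (0.30, a call lost without AA replicate 2 or 3 or MS replicate 2, where the edgeR adjusted p was 0.065 to 0.153).

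Cytochromes P450 as a whole parted, 17 of 185 higher and 24 lower (median -0.05). CYP81D8 (AT4G37370) stood at 21.1, 14.5 and 14.02 CPM with MS and 239, 221 and 269 CPM with AA, and CYP702A5 (AT4G15393) at 25.8, 31.7 and 27.7 CPM with MS and 6.39, 6.97 and 6.08 CPM with AA (-2.13 ± 0.12, edgeR adjusted p = 3.46e-14). Exporter families had members called in both directions, where 6.20% of all genes rose and 3.80% fell. Their medians were 0.31 for ABCC, 0.0 for the MATE product name and 0.05 for ABCG. Of 14 ABCC transporters, which move conjugates into the vacuole, 4 rose and 1 fell, with ABCC3 (AT3G13080) at 68.5, 36.4 and 43.4 CPM with MS and 196, 223 and 195 CPM with AA (2.05 ± 0.26) and ABCC11 (AT1G30420) at 1.18. Of 48 genes with the product name MATE efflux family protein 8 rose and 5 fell; the adjacent genes DTX1 (AT2G04040) and AT2G04050 on chromosome 2 stood at 15.2, 3.57 and 7.14 CPM with MS and 61.9, 108 and 81.2 CPM with AA and at 4.18, 0.268 and 0.422 CPM with MS and 42.5, 88.3 and 64.8 CPM with AA, without overlap. ABCA7 (AT3G47780) rose by 2.24 ± 0.13, and 7 of 39 ABCG transporters rose against 3 that fell.

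Some auxin genes of inactivation, transport and early response rose, and genes of auxin synthesis were not called. GH3 enzymes join auxin to amino acids and UGT74E2 joins the related indole butyric acid to glucose. Of 11 tested genes of inactivation 6 rose and 2 fell (median 0.71). GH3.5 (AT4G27260) stood at 15.1, 14.4 and 15.4 CPM with MS and 77.2, 80.4 and 82.7 CPM with AA (2.42 ± 0.10, edgeR adjusted p = 3.84e-17), and GH3.1 (AT2G14960) went from 0.895 ± 0.202 to 5.47 ± 1.19 CPM (2.61 ± 0.39). GH3.3 (AT2G23170) and GH3.2 (AT4G37390) stood at 275, 269 and 334 and at 184, 192 and 207 CPM with AA, against at most 14.2 and 9.54 CPM with MS.

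None of 9 synthesis genes was called in either direction (median -0.22), among them TAA1 (AT1G70560) (from 15.0 ± 1.51 to 14.8 ± 1.19 CPM), TAR2 (AT4G24670) at -0.27, YUC2 (AT4G13260) at -0.15 and YUC6 (AT5G25620) at -0.22. Of 19 transport genes 5 rose and 1 fell. ABCB11 (AT1G02520), a P-glycoprotein that is not on this list, stood at 9.58, 12.1 and 10.8 CPM with MS and 204, 185 and 256 CPM with AA (4.31 ± 0.14, edgeR adjusted p = 3.19e-20), a 19.8-fold rise without overlap. On the list, ABCB4 (AT2G47000), an auxin carrier of the root epidermis, stood at 68.7, 46.9 and 48.9 CPM with MS and 472, 523 and 634 CPM with AA. Of the PIN-like carriers of the endoplasmic reticulum, PILS3 (AT1G76520), PILS5 (AT2G17500) and PILS7 (AT5G65980) rose less, by 0.74, 0.75 and 1.32. The others on the list were not called (-0.31 and 0.20).

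Aux/IAA proteins repress auxin response and are themselves induced by auxin; 7 of 26 rose and 1 fell. IAA1 (AT4G14560) went from 8.72 ± 1.13 to 17.9 ± 1.81 CPM (1.04 ± 0.14), IAA2 (AT3G23030) and IAA13 (AT2G33310) rose by 0.69 and 0.68, and IAA28 (AT5G25890) fell (-0.63). Of the LBD factors of lateral root formation, LBD29 (AT3G58190) went from 0.566 ± 0.0881 to 5.76 ± 0.745 CPM (3.34 ± 0.31), LBD18 (AT2G45420) from 0.684 ± 0.268 to 4.99 ± 1.61 CPM (2.85 ± 0.34) and LBD16 (AT2G42430) from 1.54 ± 0.320 to 4.25 ± 1.15 CPM (1.46 ± 0.29). In the whole LBD family 4 of 24 rose and 5 fell; the fallen ones include LBD41 of the hypoxia set and LBD40 (AT1G67100) (-2.64), which stood under 2 CPM in every library. None of 16 auxin response factors was called (ARF7 at 0.06, ARF6 at -0.07), and the SAUR growth genes gave 4 higher and 5 lower of 65 (5 called without AA replicate 3 or MS replicate 2 or 3). At 24 h no Aux/IAA gene was higher and 5 were lower with AA, and the time interaction was called for GH3.3 (3.76 ± 0.20), GH3.5 (1.89 ± 0.14) and IAA1 (1.74 ± 0.19).

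**Figure D3:**
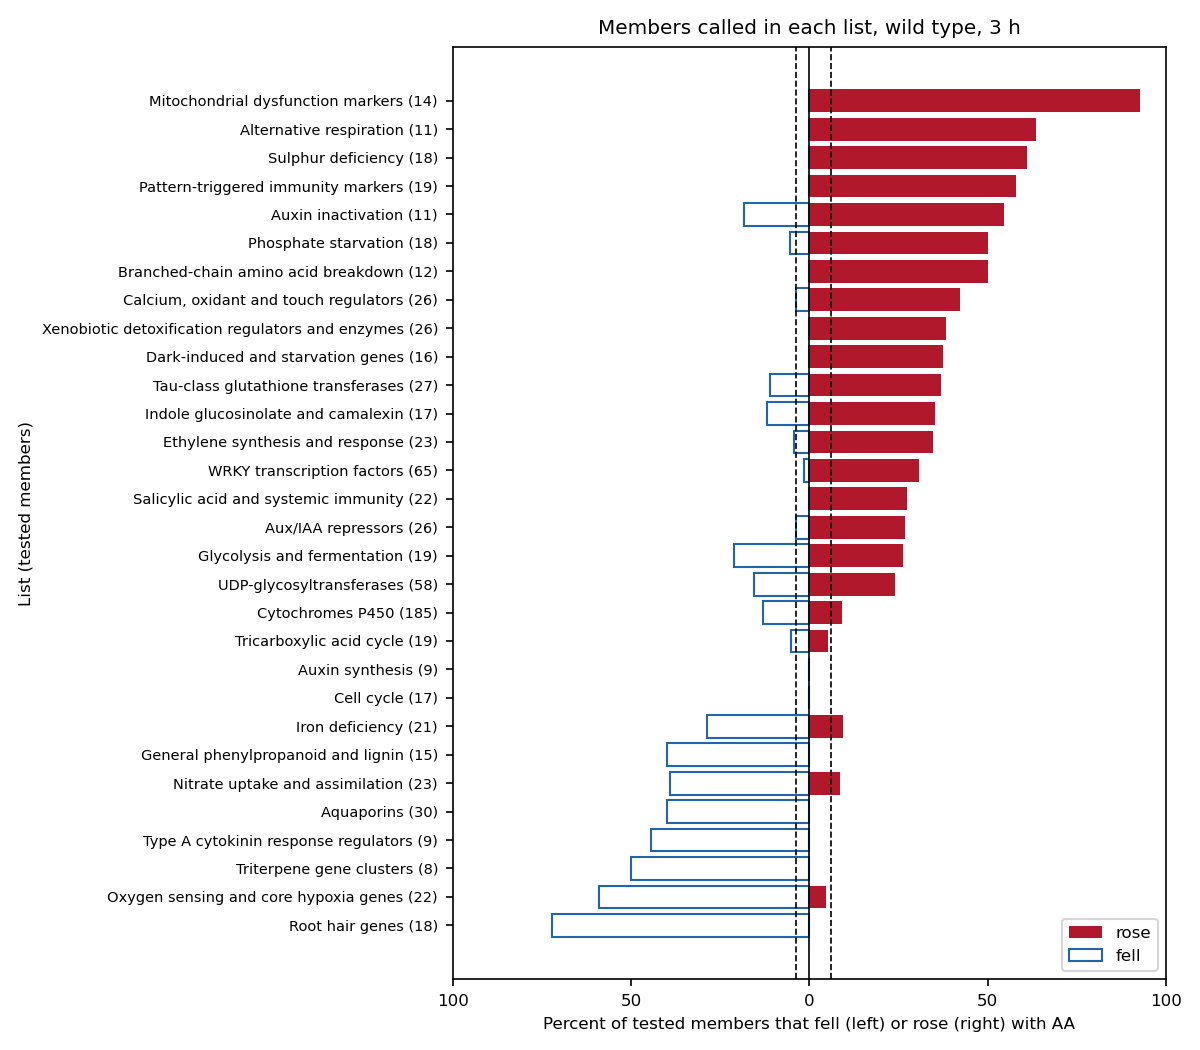
Percent of tested members that rose (right, filled bars) and fell (left, open bars) with AA in wild type at 3 h for 30 gene lists, with the number of tested members after each name; dashed lines mark 6.20% and 3.80%, the shares over all 21256 genes. Bars for mitochondrial dysfunction, alternative respiration and sulphur deficiency reach far to the right, and those for root hairs and core hypoxia genes far to the left.

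For other hormones, counts are again beside 6.20% higher and 3.80% lower over all genes. Of 9 type A response regulators, which cytokinin induces and which dampen its signal, 4 fell and none rose: ARR3 (AT1G59940) stood at 3.37, 3.2998 and 3.59 CPM with MS and 0.738, 0.795 and 0.497 CPM with AA (-2.33 ± 0.28), and ARR4 (AT1G10470), ARR6 (AT5G62920) and ARR8 (AT2G41310) changed by -0.40, -0.55 and -0.42. The list had 2 called without MS replicate 1 or 2. For ARR4 this is a call lost without MS replicate 2, where the edgeR adjusted p was 0.0639. For ARR6 it is a call lost without AA replicate 1 or 3 or MS replicate 1 or 2, where the edgeR adjusted p was 0.0533 to 0.136, and for ARR8 a call lost without AA replicate 2 or MS replicate 1, where the edgeR adjusted p was 0.0793 to 0.0845. CRF6 (AT3G61630), a cytokinin response factor, rose (9.13, 10.1 and 6.80 CPM with MS and 35.1, 53.7 and 52.9 CPM with AA, 2.45 ± 0.18). Gibberellin gave 2 of 17 higher and none lower, both oxidases that inactivate the hormone, GA2OX2 (AT1G30040) (from 2.23 ± 1.103 to 9.14 ± 1.14 CPM, 2.03) and GA2OX8 (AT4G21200) (2.61).

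Ethylene synthesis and response gave 8 of 23 higher and 1 lower (5 called without MS replicate 3). The synthase genes ACS2 (AT1G01480) (from 1.55 ± 0.373 to 7.60 ± 1.11 CPM, 2.29 ± 0.39), ACS6 (AT4G11280) (0.69) and ACS7 (AT4G26200) (1.46, a call lost without MS replicate 2, where the edgeR adjusted p was 0.0656) were among them. Of the receptors ERS2 (AT1G04310) rose by 0.66. The jasmonate list gave 1 of 22, CYP94B3 (AT3G48520), which turns active jasmonate over (from 1.86 ± 0.779 to 11.1 ± 0.990 CPM, 2.57). In a fit of the 6 libraries alone 3 were called, and 2 with DESeq2, no count filter, or without AA replicate 2 or MS replicate 1. Brassinosteroid genes gave 2 higher and 1 lower of 14 (1 called without MS replicate 1). Karrikin and strigolactone genes gave 1 lower and none higher of 13 (2 called in a fit of the 6 libraries alone). Abscisic acid genes gave none higher and 2 lower of 20, a share of 10.0%, as over all genes. None of them was called without AA replicate 2 or 3 or MS replicate 2 or 3. Without AA replicate 1 the list had 1 higher and none lower. Cytokinin turnover gave 1 higher of 14. The peptide hormone gene PSK4 (AT3G49780), a phytosulfokine precursor, stood at 20.3, 18.8 and 22.04 CPM with MS and 92.0, 88.8 and 92.3 CPM with AA (2.16 ± 0.11, edgeR adjusted p = 3.04e-15), and of 24 CLE peptide genes 2 rose and 2 fell, with CLE13 (AT1G73965) at 2.66 and CLE2 (AT4G18510) at -1.66.

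Genes of early immune and calcium signalling rose in many families. Of 19 markers of pattern-triggered immunity, the response to microbial molecules, 11 rose and none fell (median 0.96), with 7 called without MS replicate 2. ATL31 (AT5G27420), a ubiquitin ligase also named for its role in carbon and nitrogen balance, stood at 9.66, 8.83 and 8.95 CPM with MS and 67.8, 69.7 and 61.2 CPM with AA (2.85 ± 0.16, edgeR adjusted p = 2.95e-14), and the ligases PUB22 (AT3G52450) and PUB23 (AT2G35930) rose by 1.08 and 1.56. WRKY33 (AT2G38470), a central factor of camalexin synthesis, went from 48.4 ± 6.29 to 122 ± 16.3 CPM (1.34 ± 0.15). Of 65 WRKY factors 20 rose and 1 fell, WRKY51 (AT5G64810) from 1.06, 1.03 and 1.56 to 13.7, 9.24 and 14.8 CPM (3.37 ± 0.28), WRKY25 (AT2G30250) by 1.95, WRKY75 (AT5G13080) by 2.11 and WRKY31 (AT4G22070) from 3.83 ± 0.265 to 16.6 ± 4.85 CPM.

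Several families of kinases, calcium sensors and ligases had no fallen member, where 6.20% of all genes rose and 3.80% fell. Calcium-dependent kinases gave 7 of 28 higher (4 called without MS replicate 3) and none lower, calmodulin-like proteins 4 of 13 (2 called without AA replicate 1 or 3 or MS replicate 1 or 2 or with upper-quartile factors) and none, cysteine-rich receptor kinases 6 of 40 (11 called in a fit of the 6 libraries alone) and none, and plant U-box ligases 4 of 22 and none. Larger families had calls in both directions, beside 10.0% of all genes called. Genes annotated as leucine-rich repeat protein kinase family proteins gave 10 higher and 9 lower of 106 (17.9% called). Those of the protein kinase superfamily gave 26 and 11 of 272 (13.6% called). CPK11 (AT1G35670) rose by 0.46, CML42 (AT4G20780) by 0.74, CRK3 (AT1G70530) by 0.74 and CRK36 (AT4G04490) by 2.70. CML12 (AT2G41100), a touch gene, rose by 1.11, with 63.3% of its values not whole. In the list of calcium, oxidant and touch regulators 11 of 26 rose and 1 fell, ERF6 (AT4G17490) from 11.6, 8.87 and 8.32 to 32.0, 40.4 and 36.9 CPM (1.92 ± 0.19) and ERF5 (AT5G47230) by 1.35.

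Salicylic acid genes gave 6 of 22 higher (3 called without MS replicate 2) and none lower. ALD1 (AT2G13810), an aminotransferase of systemic immunity, went from 1.73 ± 0.243 to 5.51 ± 1.08 CPM (1.67 ± 0.32), and UGT76B1 (AT3G11340), which glucosylates salicylic acid, rose by 0.82. PR1 (AT2G14610), the classical output of this hormone, stood at 4.75, 0.178 and 15.2 CPM with MS and 53.9, 12.9 and 4.51 CPM with AA, so that its groups overlapped and no call was made (edgeR adjusted p = 0.302). PR2 (AT3G57260) stood at 5.52, 0.535 and 4.01 CPM with MS and 32.7, 7.08 and 8.15 CPM with AA and was not called (edgeR adjusted p = 0.128).

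Some genes of indole defence compounds rose, and the called phenylpropanoid genes fell. Of 17 genes of indole glucosinolates and camalexin 6 rose and 2 fell: CYP81F2 (AT5G57220), which modifies indole glucosinolates, stood at 21.3, 15.6 and 18.7 CPM with MS and 75.5, 80.3 and 103 CPM with AA (2.22 ± 0.16, edgeR adjusted p = 5.55e-12), CYP71A12 (AT2G30750) rose by 1.96, and the factor MYB51 (AT1G18570) went from 9.72 ± 2.06 to 24.3 ± 2.44 CPM (1.32), whereas the related factor MYB34 (AT5G60890) fell (-0.40). The indole glucosinolate methyltransferase genes IGMT2 (AT1G21120), IGMT3 (AT1G21110) and IGMT1 (AT1G21100) rose by 2.61, 2.44 and 1.84. They lie side by side on chromosome 1 and 60.0% to 80.0% of their values were not whole, which shows that read pairs were shared between near-identical copies, so the split among them is uncertain. Of 15 phenylpropanoid and lignin genes 6 fell and none rose (10 called with upper-quartile factors, 3 called without AA replicate 3, 2 called without AA replicate 2 or MS replicate 2). HCT (AT5G48930) changed by -0.26 (a call lost without MS replicate 2 or 3, where the edgeR adjusted p was 0.0529 to 0.0707) and CYP84A1 (AT4G36220) by -0.25 (a call lost without AA replicate 1 or 2 or MS replicate 2, where the edgeR adjusted p was 0.0644 to 0.0975). Aliphatic glucosinolates gave 2 lower of 16, including the factor MYB29 (AT5G07690) (-0.67), and tryptophan and aromatic synthesis 1 higher and 1 lower of 15.

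Nutrient genes moved in different directions by element. Of 18 genes that mark sulphur deficiency 11 rose and none fell (median 0.56). APR3 (AT4G21990), the reductase that commits sulphate to assimilation, stood at 148, 144 and 144 CPM with MS and 273, 284 and 262 CPM with AA (0.91 ± 0.13, edgeR adjusted p = 4.4e-06). SHM7 (AT1G36370) and SULTR4;1 (AT5G13550), a vacuolar sulphate exporter, rose by 0.97 and 0.58, and LSU3 (AT3G49570) went from 2.64 ± 0.730 to 7.26 ± 2.11 CPM (1.46). In the comparison of MS at 3 h with untreated seedlings, which shares the MS libraries, none of these genes was higher and 13 lower (median -0.79); over all genes 15.8% were higher there and 33.2% were called in either direction.

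Of 18 phosphate starvation genes 9 rose and 1 fell (median 0.61). SPX1 (AT5G20150), a phosphate sensor, stood at 23.2, 19.6 and 22.6 CPM with MS and 82.8, 73.1 and 82.9 CPM with AA (1.87 ± 0.25), the acid phosphatase PAP17 (AT3G17790) at 12.4, 10.5 and 10.7 CPM with MS and 41.2, 42.9 and 29.5 CPM with AA (1.76 ± 0.20), and the phosphodiesterase GDPD1 (AT3G02040) rose by 2.15. The AA libraries lay above the MS libraries in each. A second gene of that kind, GDPD2 (AT5G41080), which is not on the list, stood at 10.4, 11.0 and 11.5 CPM with MS and 81.7, 81.0 and 102 CPM with AA (3.01 ± 0.14, edgeR adjusted p = 2.55e-16). The phosphate transporter PHT1;1 (AT5G43350) fell (from 99.0 ± 1.77 to 68.1 ± 5.11 CPM, -0.54, with 56.7% of values not whole). HRS1 (AT1G13300), a factor of phosphate and nitrate response, rose (from 21.1 ± 1.32 to 60.3 ± 0.920 CPM, 1.51). Against untreated seedlings, MS at 3 h had none of the 18 genes higher and 14 lower.

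More nitrate genes fell than rose: of 23 genes of uptake and assimilation 9 fell and 2 rose. NRT1.5 (AT1G32450), which loads nitrate into the xylem, stood at 156, 172 and 173 CPM with MS and 74.5, 70.8 and 67.4 CPM with AA (-1.24 ± 0.08, edgeR adjusted p = 2.44e-13), and NRT1.1 (AT1G12110), the dual-affinity transporter, at 232, 241 and 247 CPM with MS and 151, 164 and 157 CPM with AA (-0.61 ± 0.08). NRT2.1 (AT1G08090), the high-affinity transporter, went from 7.02 ± 0.158 to 2.44 ± 0.410 CPM (-1.52 ± 0.26). No library of either group crossed into the other in these 3 genes. At 24 h NRT2.1 was higher with AA (1.16 ± 0.29), and the difference between the times was called (-2.68 ± 0.38, edgeR adjusted p = 1.24e-05).

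Iron deficiency genes gave 2 higher and 6 lower of 21 at 3 h, although the median of the list lay above 0 (0.13), against 12 higher and 1 lower at 24 h. NAS1 (AT5G04950), a nicotianamine synthase, stood at 95.0, 94.1 and 86.1 CPM with MS and 42.0, 49.4 and 48.7 CPM with AA (-0.97 ± 0.10), and FRO2 (AT1G01580), the root iron reductase, at 42.4, 50.8 and 31.8 CPM with MS and 16.8, 23.1 and 26.6 CPM with AA (-0.91 ± 0.24), a call lost without AA replicate 1 or MS replicate 2, where the edgeR adjusted p was 0.09 to 0.0938. BHLH39 (AT3G56980), a factor that iron shortage induces, was not called at 3 h (from 4.05 ± 0.696 to 4.62 ± 0.681 CPM, 0.19) and was higher with AA at 24 h (4.10 ± 0.31), with a called time interaction (-3.92 ± 0.43, edgeR adjusted p = 1.74e-07). PDR9 (AT3G53480), an exporter of iron-mobilising phenolics, rose at 3 h (0.78). The ferritin genes, which store iron, were not called at 3 h (FER1 -0.20, FER3 -0.18, FER4 -0.07 and FER2 0.31), and 3 of 4 were lower at 24 h. Zinc and copper genes gave 4 higher and 2 lower of 19, with ZIP2 (AT5G59520) at 0.75 and FRO5 (AT5G23990) at -1.79.

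Some genes of carbon shortage and of amino acid breakdown rose. Darkness and sugar starvation induce the DIN genes and the enzymes that burn amino acids. Of 16 dark-induced genes 6 rose and none fell, DIN2 (AT3G60140), a beta-glucosidase, from 0.446, 0.624 and 0.887 to 24.3, 22.5 and 24.5 CPM (5.18 ± 0.31, edgeR adjusted p = 8.58e-14), DIN1 (AT4G35770) from 8.81, 6.78 and 8.99 to 33.2, 47.8 and 27.2 CPM (2.13 ± 0.24) and BT2 (AT3G48360), a scaffold protein under sugar and nitrate control, from 17.37, 15.7 and 18.5 to 46.7, 50.8 and 43.1 CPM (1.45 ± 0.16). At 24 h 1 was higher and 6 were lower with AA. In MS at 3 h against untreated seedlings, 2 were higher and 11 lower.

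The 20 genes of lysine, proline and GABA breakdown, with the glutamate and asparagine enzymes below, gave 3 higher and none lower; these were GDH1, GDH2 and ASN1, and no enzyme of lysine, proline or GABA breakdown itself was called. Of 12 genes of branched-chain amino acid breakdown 6 rose and none fell. BCAT2 (AT1G10070), a branched-chain aminotransferase, went from 3.02 ± 1.07 to 7.29 ± 1.44 CPM (1.26 ± 0.25), IVD (AT3G45300), isovaleryl-CoA dehydrogenase, from 27.9 ± 1.26 to 45.3 ± 6.37 CPM (0.70), and AT1G21400 rose by 0.89. GDH2 (AT5G07440), a glutamate dehydrogenase, stood at 179, 159 and 164 CPM with MS and 433, 446 and 441 CPM with AA (1.40 ± 0.08, edgeR adjusted p = 1.24e-14), GDH1 (AT5G18170) rose by 0.56, and ASN1 (AT3G47340), the dark-induced asparagine synthetase, by 0.67. The response of GDH2 differed between genotypes. It stood at 206 ± 8.87 CPM with MS and 324 ± 18.25 CPM with AA in ein2-5, and the interaction was 0.74 ± 0.11 (wild type minus ein2-5, edgeR adjusted p = 0.00245).

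Further genes of nitrogen metabolism were picked by product name or after their values were seen. ALAAT2 (AT1G72330), an alanine aminotransferase, stood at 12.6, 9.54 and 11.5 CPM with MS and 85.0, 124 and 106 CPM with AA (3.22 ± 0.17, edgeR adjusted p = 6.16e-15), and ASPGB1 (AT3G16150), an asparaginase, at 5.19, 4.68 and 6.08 CPM with MS and 27.4, 24.6 and 28.6 CPM with AA (2.33 ± 0.19). Of 12 class I glutamine amidotransferase-like genes 3 rose and 1 fell, GAT1_2.1 (AT1G15040) from 4.55, 3.70 and 2.66 to 35.6, 31.0 and 40.6 CPM (3.29 ± 0.23) and AT5G38200 from 15.8, 14.05 and 15.0 to 67.6, 66.7 and 89.9 CPM (2.32 ± 0.12). The amino acid exporter UMAMIT14 (AT2G39510) fell, from 17.61, 21.3 and 18.8 to 5.43, 4.81 and 6.92 CPM (-1.75 ± 0.14). At 24 h AT5G38200 was lower (-0.65 ± 0.13) and UMAMIT14 higher (1.57 ± 0.13) with AA, each opposite to 3 h.

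Sugar signalling, stores and protein turnover follow, beside 6.20% higher and 3.80% lower over all genes. Trehalose and sucrose signalling gave 3 higher and 2 lower of 23, with the trehalose phosphatases TPPG (AT4G22590) at 1.31 and TPPB (AT1G78090) at -0.91, starch turnover 1 lower of 21, photorespiration 1 higher and 1 lower of 14, and autophagy 3 higher of 16, led by ATG8E (AT2G45170) (from 35.0 ± 1.59 to 82.4 ± 17.0 CPM, 1.23). Of 20 sugar transporters 3 rose and none fell, STP4 (AT3G19930) by 0.79. The proteasome list gave 1 of 33, its regulator ANAC053 (AT3G10500) (1.64). The unfolded protein response gave 3 higher and 1 lower of 21, where the factor BZIP60 (AT1G42990) rose by 1.86.

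Most root hair genes fell. Root hairs are outgrowths of single epidermal cells that need RHD6-type factors, wall extensins and loosening enzymes. Of 18 tested root hair genes 13 fell and none rose (median -1.08). RHD6 (AT1G66470), the factor that starts hair growth, stood at 2.88, 3.92 and 3.25 CPM with MS and 0.960, 0.757 and 0.497 CPM with AA (-2.17 ± 0.31, edgeR adjusted p = 6.17e-06), and RSL4 (AT1G27740), which sets hair length, at 3.003, 1.87 and 2.62 CPM with MS and 0.738, 0.984 and 1.19 CPM with AA (-1.36 ± 0.41), a call lost without AA replicate 1 or 2 or MS replicate 1 or 3, where the edgeR adjusted p was 0.075 to 0.131. The wall protein genes PRP3 (AT3G62680) and PRP1 (AT1G54970) stood at 49.0, 39.9 and 39.4 CPM with MS and 16.3, 13.97 and 14.8 CPM with AA (-1.51 ± 0.15) and at 18.3, 15.7 and 12.8 CPM with MS and 2.99, 3.48 and 3.56 CPM with AA (-2.22 ± 0.25). No library of RHD6, PRP3 or PRP1 crossed between the groups. At 24 h none was higher and 13 were lower with AA. In MS at 3 h against untreated seedlings no root hair gene was called. These genes mark root hair cells, as the root markers COBL9 and EXPA7 do, and the part of a change in the share of hair cells in the counts was not tested. Casparian strip genes of the endodermis gave no call among 9 (CASP1 -0.22, CASP2 -0.15), the cell cycle list none of 17, and suberin genes 2 higher of 16.

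Wall protein families had more fallen than risen members. Of 6 extensins 4 fell and 1 rose (3 called without AA replicate 2 or MS replicate 2), with EXT13 (AT5G35190) at -2.67 and EXT10 (AT5G06640) at -1.38. Extensins share read pairs (46.7% and 56.7% of values not whole), so single values are uncertain. Of 30 xyloglucan hydrolases 8 fell and 5 rose, with XTH13 (AT5G57540) at -2.87 and XTH12 (AT5G57530) at -2.01, and of 25 expansins 6 fell and 1 rose (4 called without MS replicate 1), with EXPA17 (AT4G01630) at -1.59 and EXPA14 (AT5G56320) at -1.09. Arabinogalactan proteins gave 9 lower and 1 higher of 42 (16 called in a fit of the 6 libraries alone, 5 called without MS replicate 2), with AGP22 (AT5G53250) and AGP13 (AT4G26320) at -2.01 and -1.84.

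Water channels fell without a member that rose: 12 of 30 aquaporins (median -0.22). PIP2;2 (AT2G37170) of the plasma membrane stood at 231, 230.0 and 234 CPM with MS and 147, 147 and 147 CPM with AA (-0.65 ± 0.08, with 46.7% of values not whole), and NIP1;1 (AT4G19030) at 19.8, 22.3 and 20.1 CPM with MS and 6.31, 7.61 and 6.39 CPM with AA (-1.61 ± 0.12). NIP2;1 (AT2G34390), known from submerged roots, went from 11.6 ± 3.81 to 3.52 ± 1.04 CPM (-1.72 ± 0.23) and was higher with AA at 24 h (1.53 ± 0.24). Root triterpene gene clusters gave 4 of 8 lower and none higher: the thalianol pathway genes THAS1 (AT5G48010), THAH (AT5G48000) and THAD (AT5G47990) stood at -1.25, -1.15 and -1.34, and CYP71A16 (AT5G42590) of the marneral cluster at -1.46. At 24 h THAS1 and THAH were higher with AA (1.57 ± 0.13 and 1.26 ± 0.15).

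**Figure D4:**
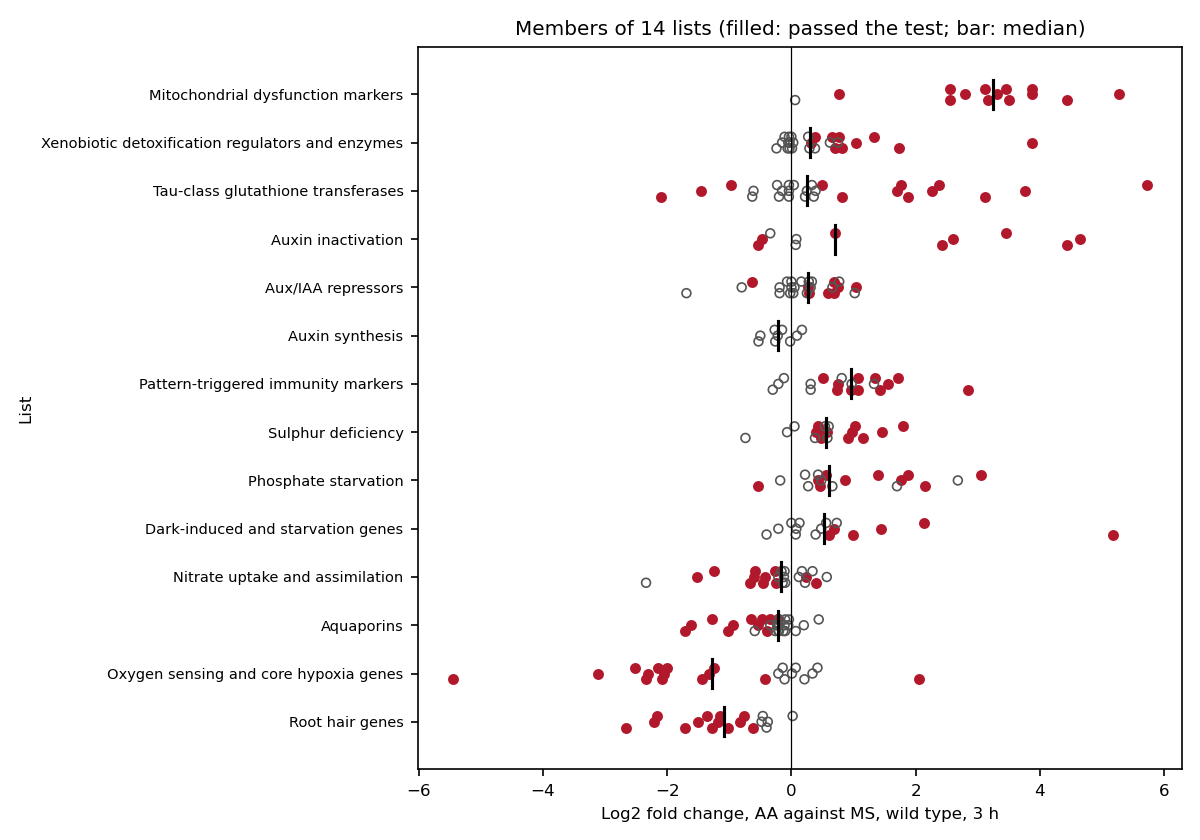
Log2 fold change with AA in wild type at 3 h of each tested member of 14 lists and families; filled points passed the test, open points did not, and the vertical bar is the median of the row. The line at 0 marks no change, and the median of all 21256 genes is -0.01. Points of mitochondrial dysfunction markers lie to the right of 0 and most points of root hair genes to the left.

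Families found by product name were ranked by the share of members called, so their counts describe the choice and support nothing. Of 18 FAD-binding Berberine family genes, oxidases of the berberine bridge type, 10 rose and none fell (median 0.84): AT1G30700 stood at 20.5, 16.2 and 20.4 CPM with MS and 84.6, 81.1 and 95.6 CPM with AA (2.19 ± 0.11), and its neighbours AT1G30720 and AT1G30730 rose by 1.16 and 1.65. Of 14 genes named hypothetical protein (DUF295) 7 rose and none fell, with the adjacent genes AT5G52930 and AT5G52940 on chromosome 5 at 2.15, 1.65 and 1.31 CPM with MS and 10.6, 13.2 and 18.25 CPM with AA and at 1.87, 2.27 and 1.69 CPM with MS and 17.5, 24.4 and 29.8 CPM with AA. AT5G54450 of this group had no count in any MS library and stood at 2.105, 3.03 and 2.75 CPM with AA, which is at least 20.6-fold higher than 3 counts in each MS library would be. PLATZ transcription factors gave 5 higher and none lower of 11, AT4G17900 by 0.89, and VQ motif proteins, partners of WRKY factors, 6 higher and 1 lower of 23, AT1G17147 by 2.23. Mannose-binding lectins gave none higher and 9 lower of 26, with JAL31 (AT3G16430) at -0.93 (90.0% of values not whole) and AT1G52060 at -0.84, and CAP superfamily proteins none higher and 5 lower of 14, with AT4G25790 at -1.94. Class III peroxidases named as peroxidase superfamily proteins parted into 13 higher and 15 lower of 57, from PER4 (AT1G14540) at 2.77 to AT2G39040 at -2.68. Pentatricopeptide repeat proteins, which edit organelle transcripts, gave 4 higher and none lower of 183.

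Many of the largest rises were in genes of unknown or barely described function; DIN2, described above, was an exception. AT3G54530, uncharacterised, had no count in any MS library and stood at 32.5, 30.6 and 51.5 CPM with AA, which is at least 299.9-fold higher by the same reckoning. Its neighbour AT3G54520, also uncharacterised and also on the minus strand of chromosome 3 (20183517 to 20185202, with AT3G54530 at 20185966 to 20187637), stood at 0.0812, 0.0892 and 0 CPM with MS and 6.31, 6.10 and 10.6 CPM with AA. Read pairs were counted without regard to strand, so signal of genes that overlap cannot be kept apart, and the annotated end of AT3G54520 overlaps AT3G54510 on the other strand. AT5G55150, an F-box protein like SKIP23, stood at 0.609, 0 and 0 CPM with MS and 16.1, 16.0 and 21.5 CPM with AA (6.37 ± 0.58), and AT5G24640, uncharacterised, at 1.06, 0.223 and 0.127 CPM with MS and 33.2, 37.9 and 27.5 CPM with AA (6.09 ± 0.50). AT2G32020, annotated as an acyl-CoA N-acyltransferase, stood at 1.01, 0.669 and 0.929 CPM with MS and 43.5, 41.9 and 47.0 CPM with AA (5.65 ± 0.28, edgeR adjusted p = 1.05e-15). AT2G38823, uncharacterised, stood at 1.42, 1.61 and 2.58 CPM with MS and 45.2, 39.9 and 59.8 CPM with AA (4.69 ± 0.22). In these genes the MS libraries were at or near 0 and every AA library was far above them.

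Others on the rule for the largest rises were AT2G23270 (5.18), AT1G34050, an ankyrin repeat protein (4.89), AT4G12735 (4.77) and AT5G13210 (4.75). AT5G43450, a 2-oxoglutarate and iron dependent oxygenase, and AT2G18193, a P-loop ATPase, were picked after their values were seen and stood at 32.7, 20.3 and 19.3 CPM with MS and 202, 273 and 264 CPM with AA and at 11.0, 4.73 and 4.77 CPM with MS and 70.2, 86.4 and 99.6 CPM with AA (3.35 and 3.64). NFXL1 (AT1G10170), a zinc finger regulator, went from 55.5 ± 1.78 to 278 ± 16.0 CPM (2.32 ± 0.09), and PCR2 (AT1G14870), a zinc exporter of the plant cadmium resistance family, rose by 1.51.

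The largest falls included AT2G17850, a rhodanese-type protein, at 5.97, 7.63 and 7.31 CPM with MS and 0.258, 0.379 and 0.459 CPM with AA (-4.24 ± 0.30, edgeR adjusted p = 4.28e-12). AT4G10270, of a wound-responsive family, stood at 7.39, 14.5 and 13.0 CPM with MS and 1.698, 1.40 and 0.880 CPM with AA (-3.12 ± 0.39). AT2G48080, an oxygenase, went from 5.08 ± 0.110 to 1.08 ± 0.387 CPM (-2.23). In all 3 the AA libraries lay under the MS libraries. The lipid transfer-like genes AT4G12510, AT4G12520, AT5G46890 and AT5G46900 changed by -3.63, -3.39, -2.43 and -3.09; they come in near-identical pairs with 73.3% to 83.3% of values not whole, so the pairs rather than the single genes were measured. AT4G22666 of the same protein family, with few shared read pairs, went from 7.06 ± 0.414 to 1.09 ± 0.0570 CPM (-2.69 ± 0.24).

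Transcription factor families other than WRKY gave smaller counts, here beside 6.20% higher and 3.80% lower over all genes. NAC factors gave 13 higher and 3 lower of 83 (10 called without MS replicate 2), and R2R3 MYB factors 10 and 4 of 96 (9 called without MS replicate 2). ERF and DREB factors gave 6 higher and 3 lower of 43, heat shock factors 2 and 1 of 19, and bZIP 2 and 2 of 39. The bZIP share called, 10.3%, was near the 10.0% over all genes. ATAF2 (AT5G08790), a NAC factor, stood at 56.7, 48.9 and 51.8 CPM with MS and 172, 169 and 180.0 CPM with AA (1.73 ± 0.10), and ANAC053 rose by 1.64 ± 0.09. TGA1 (AT5G65210), which recruits salicylic acid and nitrate regulators, fell from 72.2, 66.5 and 67.5 to 41.7, 42.4 and 44.8 CPM (-0.68 ± 0.10), as did LBD39 (AT4G37540), a nitrate-induced repressor (-0.66). HD-Zip (42 tested), DOF (9) and auxin response factors (16) had no call, TGA factors gave 1 lower of 10, and BBX (27), GATA (26) and TCP (20) had 1 each.

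The remaining lists are given beside 6.20% higher and 3.80% lower over all genes. Targets of shade and phytochrome-interacting factors gave 2 higher and 0 lower of 14, light-induced and flavonoid genes 2 and 3 of 17 (3 called without MS replicate 2 or 3, 2 called without AA replicate 2, 1 called without AA replicate 3 or MS replicate 1 or in a fit of the 6 libraries alone), and clock genes 2 and 0 of 14. Transporters of the ABCB type gave 4 and 1 of 22, of the NPF type 3 and 3 of 23 (3 called without AA replicate 2 or MS replicate 2), and of the ZIP metal type 3 and 1 of 9. Among enzymes, pectin methylesterases gave 1 and 1 of 11, beta-glucosidases 7 and 6 of 35, germin-like proteins 1 and 0 of 9, and mitogen-activated protein kinases 3 and 1 of 30. Ubiquitin ligases of the ATL type gave 3 and 0 of 13, jacalin lectins 0 and 4 of 7, lipid transfer proteins by symbol 0 and 0 of 7, and plant defensins 0 and 0 of 11. In the lists with no call by edgeR, the members with an unadjusted p under 0.05 numbered 2 of 9 for auxin synthesis, 3 of 16 for auxin response factors, 1 of 17 for the cell cycle, 4 of 42 for HD-Zip factors, 1 of 9 for DOF factors, 1 of 11 for defensins, and 0 for the Casparian strip, ferritin and lipid transfer lists. DESeq2 called 1 gene among these lists, AT5G04470 of the cell cycle list, as lower. Of the 46 lists and families with 1 to 5 calls, the count of 28 moved by over 1.5 times when a single library was left out, 20 of them without MS replicate 2 and 15 without AA replicate 1.

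The response at 3 h was then set against that at 24 h. The difference between AA and MS was tested against that at 24 h, with MS libraries of each time as controls. It was above the 24 h difference in 838 genes (3.94%) and below it in 543 (2.55%). Of the 1317 genes that rose at 3 h 516 had the larger difference at 3 h and 9 the smaller, and of the 808 that fell 223 had the lower difference at 3 h and 13 the higher. Choosing genes by their call at 3 h favours a larger difference at that time, and the choice at 24 h gave the reverse. Of the 1378 genes higher with AA at 24 h 350 had the smaller difference at 3 h and 90 the larger, and of the 1382 lower at 24 h 333 had the higher difference at 3 h and 10 the lower. WRKY51, PSK4 and GDPD2 stood at 0.63, -0.08 and -0.14 at 24 h, with time interactions of 2.73 ± 0.40, 2.24 ± 0.16 and 3.15 ± 0.19. The motif-bearing genes AT5G55150, AT5G24640 and AT4G12735, a part of those printed, had no called time interaction (edgeR adjusted p = 0.966, 0.673 and 0.763). They stood at 5.81, 5.01 and 5.54 at 24 h. ADH1, which carries both forms, had a called time interaction, as given above. Of 14 mitochondrial dysfunction markers 7 had a difference at 3 h above that at 24 h and 0 below, with medians of 3.24 at 3 h and 2.0 at 24 h. The labels name the time as the batch, so time and batch cannot be told apart in these interactions.

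**Figure D5:**
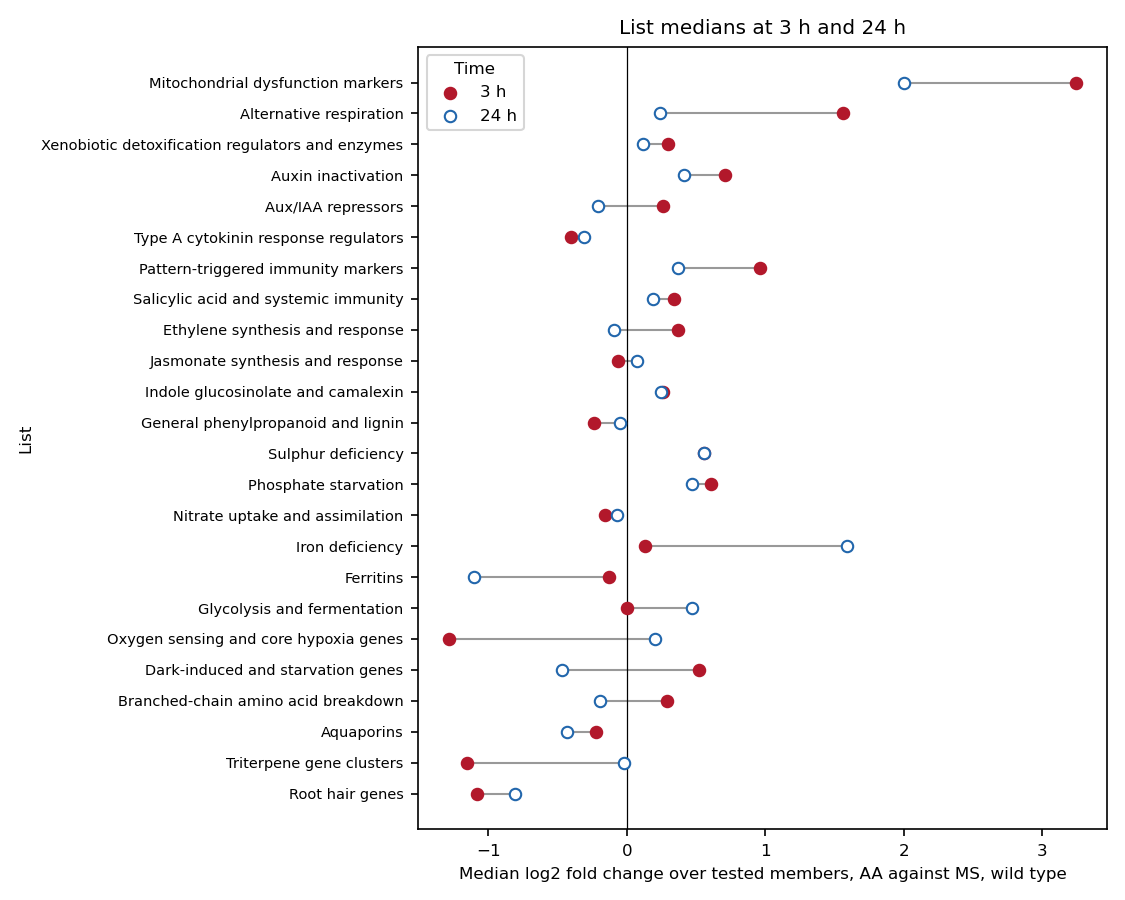
Median log2 fold change with AA in wild type at 3 h (filled circle) and 24 h (open circle) over the tested members of 24 lists, joined by a line. Mitochondrial dysfunction and root hair lists keep their side of 0 at both times, while the iron deficiency, core hypoxia and dark-induced lists have medians of 0.13 and 1.59, -1.28 and 0.20, and 0.52 and -0.47.

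Few genes responded differently in wild type and ein2-5 at 3 h. In ein2-5, AA raised 1408 genes (6.62%) and lowered 1322 (6.22%). The interaction of AA with genotype was called in 15 genes (0.0706%), above in wild type in 9 and below in 6. RLE factors gave 9 above and 11 below, and DESeq2 called 62, with 18 above and 44 below. The count of 15 was 6, 9 and 3 without wild-type AA replicates 1, 2 and 3, and 7 and 4 without wild-type MS replicates 2 and 3. It was 6 and 7 without ein2-5 AA replicates 1 and 3, and 4 without ein2-5 MS replicate 1. Replicate 3 of ein2-5 with MS at 3 h lay further from its group. Its log2 CPM correlated at 0.9765 and 0.9767 with replicates 1 and 2, against 0.9867 between those. Without it the count was 13. A p that misses the threshold does not show that the genotypes responded alike. Of the genes named here, the interaction was called for GDH2, GDPD2, HRS1, UGT73C6 (AT2G36790) and AT2G18980. GDPD2 changed by 3.01 ± 0.14 in wild type and 1.85 ± 0.13 in ein2-5 (interaction 1.16 ± 0.19, edgeR adjusted p = 0.00744), and HRS1 by 1.51 ± 0.11 and 0.68 ± 0.11 (interaction 0.84 ± 0.16, edgeR adjusted p = 0.0291). UGT73C6, a glycosyltransferase, rose by 1.74 ± 0.14 in wild type and 2.76 ± 0.15 in ein2-5. The peroxidase gene AT2G18980 changed by -0.83 ± 0.10 in wild type and -0.03 ± 0.10 in ein2-5 (interaction -0.81 ± 0.14, edgeR adjusted p = 0.0197).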

How the data were processed

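Estimated counts per gene were deposited for 30 libraries of 10 groups of 3. The authors made them with featureCounts 2.0.3, per the file headers, from read pairs without strand, dividing multi-mapping pairs between genes. HISAT2, SAMtools, DESeq and DESeq2 and the build TAIR10 are named in the submitters' processing notes. Of the deposited values 6.31% were not whole, and all were rounded to whole numbers before testing.

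Genes were kept by filterByExpr of edgeR 4.0.16 (R 4.3.3; minimum count 10), which left 21256 of 27655. Libraries were scaled by TMM (factors 0.958 to 1.06), and all 30 libraries entered 1 quasi-likelihood model of group means (biological coefficient of variation 11.2%). Contrasts were AA minus MS in wild type at 3 h and its interactions with genotype and time, with Benjamini-Hochberg adjustment over all genes tested. An SE is the log2 fold change divided by the square root of its F value. Figures and tables used Python 3.11.15. Gene names, products, positions and promoters came from RefSeq TAIR10.1, which matched 27445 gene IDs; the other 210 were organellar.

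The 50 lists (898 places, of which 885 were found in the deposited counts) and 46 families by symbol, and the comparison itself, were chosen with earlier results of these data known. Genes were named by rules. Up to 12 per direction had the largest change among genes called in every fit that left out a library. These also had no overlap of groups and at least 5 CPM in the higher group. Up to 6 transcription factors per direction were taken by adjusted p under the same conditions. Up to 4 per list or family were taken by adjusted p among called members with no overlap of groups. Members were named by level where a list had few calls. Families by product name were ranked by their calls. Named after their values were seen were ABCA7, ACS7, AKR4C8, AKR4C9, AKR4C10, ALAAT2, AOX1B, ASPGB1, AT1G33055, AT2G18193, AT4G24110, AT4G33560, AT5G04470, AT5G43450, AT5G51440, AT5G66650, BHLH39, CRF6, DIC3, FBA8, FRO2, GAPC1, GDPD2, GSTU24, HRS1, LBD16, LBD40, LSU3, MO1, NFXL1, OM66, OPR1, OPR3, PCO1, PCO2, PCR2, PDC1, PFK7, PR1, PR2, PSK4, RSL4, SOT12, SUS1, UMAMIT14 and WRKY75.

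Alternatives were RLE or upper-quartile factors, no filter or 1 CPM in 3 libraries, DESeq2 1.42.0, a fit without the libraries outside the comparison, replicate number as a block, an adjusted p under 0.01, organellar genes left out before scaling, and each library left out in turn. The code was tested on simulated counts.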

Additional observations from a re-analysis of the deposited data

Results flagged for a closer look

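Among the 232 genes named here, 23 had a difference between AA and MS with opposite signs at 3 h and 24 h in wild type, each called by edgeR, and the interaction between the times was called as well. Values are the log2 difference at 3 h minus that at 24 h. It was positive for AT5G38200 (2.97), the aminotransferase gene ALD1 (2.78), the factor HRS1 (1.94), IAA1 (1.74), the asparagine synthetase gene ASN1 (1.65), UGT76B1 (1.21), GDH1 (1.03), IVD (1.02) and CPK11 (0.84). It was negative for the transporters UMAMIT14 (-3.32), NIP2;1 (-3.25), NRT2.1 (-2.68) and PHT1;1 (-0.91), the thalianol genes THAS1 (-2.81) and THAH (-2.41), the sucrose synthase genes SUS4 (-2.81) and SUS1 (-0.99), the hypoxia genes PCO2 (-2.54), PDC1 (-2.43), LBD41 (-2.01) and PCO1 (-0.85), UGT72E2 (-2.02) and the lectin gene JAL31 (-1.22). The labels give the time as the batch, so the 2 cannot be told apart here.

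The difference at 3 h differed between wild type and ein2-5 in 15 genes by the edgeR interaction test, of which 5 are named here. Wild type minus ein2-5 was 1.16 for GDPD2, 0.84 for HRS1, 0.74 for GDH2, -0.81 for AT2G18980 and -1.02 for UGT73C6. Groups of 3 libraries are too small for a test of single outlying libraries, and none was made.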

How the results depend on the processing

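The 2125 genes called for AA against MS became 2049 to 2320 under other scaling, filters, tools, fits and without organellar genes, 1392 at an adjusted p under 0.01, and 1602 to 1830 when a library was left out. Upper-quartile factors split them into 1186 higher and 1077 lower, with a median over all genes of -0.05. The time interaction, called in 1381 genes, gave 1335 to 1636, 772 at an adjusted p under 0.01, and 1087 to 1254 without single libraries. The genotype interaction, called in 15 genes, moved most of the 3: 62 with DESeq2, 5 in a fit of only the libraries compared, 8 with the replicate block, 3 at an adjusted p under 0.01, and 3 to 18 without single libraries.

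Libraries with the same replicate number did not deviate together over all genes (correlations -0.005, 0.019 and -0.042). A pairing that touches few genes would not show in these values, and the labels name none beyond the number. The replicate block gave 2084 calls for AA against MS, 8 for the genotype and 1340 for the time interaction. Over 232 named genes and 15 alternatives, 3423 of 3480 values kept their side of the threshold, 52 lost the call and 5 gained it. No called gene reversed its direction, which was not compared for genes without a call. Some naming rules required a call without each library, so a part of this agreement was fixed by the choice of genes. Of 1440 counts of lists and families 171 moved by over 1.5 times, 31 of them at an adjusted p under 0.01 and 28 without MS replicate 2; the cause was not tested. Total counts were higher in every AA library than in every MS library.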
